A study of Mus musculus with 6 samples.

Results

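Skeletal muscle burns long-chain fatty acids through a fixed chain of proteins, and 10 genes of that chain were followed on the arrays: Lpl and Cd36, which bring fatty acids to and across the plasma membrane, Fabp3, which carries them in the cytosol, Cpt1b and Cpt2, which pass them into mitochondria, and Acadm, Acadl, Acadvl, Hadha and Hadhb, which oxidize them there. The members were chosen by name, as every probe with 1 of these symbols in the platform annotation, and came to 17 probes of the 45281 on the array. RNA of primary myoblasts was hybridised to 6 Illumina mouse bead arrays, 3 for Rev-/- cells and 3 for WT cells. The Rev-/- cells came from mice with a global deletion of Rev-erbα (gene Nr1d1) made from 1 targeted embryonic stem cell clone, and the WT cells from their littermates. The labels give both groups as male C57BL/6 mice of 6 weeks, although the methods name other ages, and all cells grew in F-10 medium with 20% serum and 5 ng/ml bFGF. The deletion was global, so all other cells of the Rev-/- mice lacked Rev-erbα too.

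In oxidative muscle, fatty acids freed from lipoproteins are taken up, bound, activated to acyl-CoA, exchanged onto carnitine and shortened by repeated cycles of β-oxidation in the mitochondrial matrix. The genes of this pathway are classic targets of the PPAR and ERR nuclear receptors and their coactivator PGC-1α. Rev-erbα is a repressing nuclear receptor that binds the RORE, a half-site shared in part with those receptors, and is known as a regulator of lipid metabolism in liver and of mitochondrial content in muscle.

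The values are log2 of quantile-normalized bead intensities, with a background limit, set on each array from its dim probes, at an intensity of 99.7 to 108. Probes above it on at least 3 of the 6 arrays were tested, which left 11915 genes, each described by its brightest such probe. The probe of Nr1d1 itself lay above the limit on 3 of 6 arrays, at log2 intensities of 7.01, 6.51 and 7.14 on Rev-/- 1 to 3, against 6.59, 6.54 and 7.22 on WT 1 to 3, so that it did not separate the labels. The sources used here do not say whether the probe lies within the deletion, so it checks nothing. Arntl, a clock gene that Rev-erbα is known to repress, was at 7.30, 7.38 and 7.27 on Rev-/- 1 to 3, against 7.64, 7.52 and 7.28 on WT 1 to 3, so that it was not higher in Rev-/- cells and the groups overlapped. Neither gene thus bears out the labels, and every direction below is that of the arrays labelled Rev-/- against those labelled WT. Of 13 markers of satellite cells and myoblasts 9 were measured, Desmin and Myod1 among them, while Pax7, Pax3, Myf5 and Met were not well above background, and the fibre genes Myh8 and Acta1 were bright on all arrays, at 14.30 to 14.68 over their probes. The labelled myoblasts thus carried transcripts of differentiated muscle on every array. Genes of other cell types were also above background on all 6. Among them were Hba-a1 of red cells at 14.22 to 14.60 and Pecam1 of endothelium at 9.28 to 9.80. Mrc1 of macrophages was at 9.30 to 9.83 and Adipoq of adipocytes at 8.53 to 10.71. The part of such cells in the values below was not tested. Across probes, array Rev-/- 1 correlated least with the rest, at a mean r of 0.978, against 0.988 to 0.990 for the other 5. The samples of a group are called independent and no more is said of their animals, so p-values measure the spread between these samples, which may be technical.

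Of the 10 genes, 9 were above background and were measured on all 6 arrays, and 0 of these 9 were called different between Rev-/- and WT arrays (limma, with Benjamini-Hochberg adjusted p up to 0.05 and at least a 1.5-fold change). Over all 11915 genes 0 were called as well (0% of those tested). At an unadjusted p up to 0.05 there were 0 of the 9, against 232 lower and 148 higher genes of all, or 1.95% and 1.24%. All 9 genes had a log2 fold change below 0, from −0.26 for Lpl to −0.024 for Hadha, with a median of −0.17, whereas 52.2% of all genes were below 0 and their median was −0.0048. All 9 were also lowest on the same array, Rev-/- 1, as were 24.8% of all genes. Without that array, 3 of the 9 were below 0 and the median was 0.043. As all 9 were lowest on it, leaving it out could only raise their fold changes. Without Rev-/- 2 or Rev-/- 3 all 9 stayed below 0, with medians of −0.26 and −0.17. In 0 of the 9 did the 3 Rev-/- arrays lie wholly to one side of the 3 WT arrays, which was the case, in the lower direction, for 4.63% of all genes and, in the higher direction, for 3.55%.

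**Figure D1:**
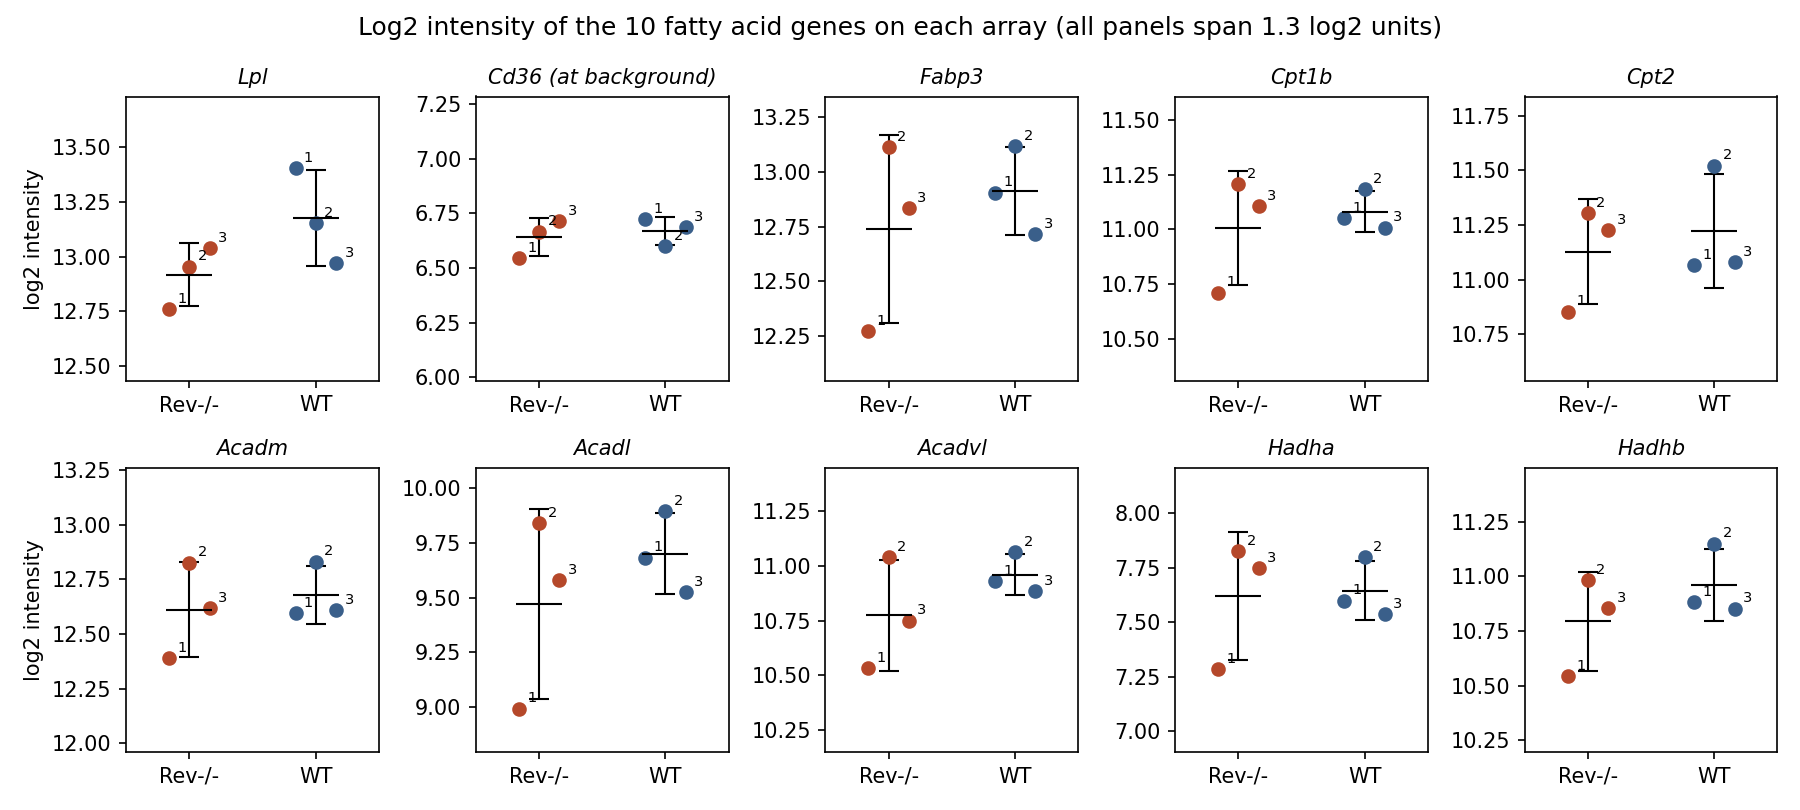
Log2 intensity (y axis) of the brightest probe of each of the 10 genes on the Rev-/- and WT arrays. Points are single arrays with their replicate number, horizontal marks the mean and bars the SD (n = 3), and the groups overlap in every panel, with Rev-/- 1 the lowest array throughout.

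Lpl, the lipase at the capillary wall that frees fatty acids from triglyceride-rich lipoproteins, showed the difference with the smallest p among the 9. Its log2 intensities were 12.76, 12.95 and 13.04 on Rev-/- 1 to 3, against 13.41, 13.15 and 12.97 on WT 1 to 3. The lowest WT array lay below the highest Rev-/- array, and the rest of the WT values lay above all Rev-/- values. The log2 fold change was −0.26 (SE 0.12, 95% interval −0.55 to 0.032, limma p = 0.0739, adjusted p = 0.998), or a fold of 0.835, and an exact permutation test of the 6 arrays gave p = 0.2, 2-sided, where 3 against 3 cannot go below 0.1. A value below 0 remained without Rev-/- 1, at −0.18, and without WT 1, the array on which Lpl was highest, at −0.14. On leaving out each array in turn the value ran from −0.36 to −0.14. The other Lpl probe, annotated to a cDNA clone record, lay near the background limit at 6.62 to 6.78 and had a log2 fold change of −0.012 (SE 0.065).

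Lpl is also a product of fat cells, and adipocyte genes varied across these arrays. Of 10 adipocyte markers 6 were measured, and their summed intensity ran from 5363 to 8075 on the Rev-/- arrays and from 6062 to 11174 on the WT arrays, highest on WT 1, the array on which Lpl was highest. Car3, the brightest, leads that sum, at 11.96, 12.57 and 12.61 on Rev-/- 1 to 3, against 12.97, 12.81 and 12.30 on WT 1 to 3. Of the 6 markers 5 were highest on WT 1. Adipoq, the adipocyte hormone adiponectin, was at 9.61, 8.53 and 10.22 on Rev-/- 1 to 3, against 10.71, 9.32 and 9.10 on WT 1 to 3. Leptin (Lep), another adipocyte hormone, was at 9.63 on WT 1 and between 7.15 and 7.98 on the other 5 arrays. Of the adipocyte markers not measured, Retn and Fabp4 were on the array but not well above background. The part of adipocyte RNA in the Lpl values was not tested, and in such bulk RNA fewer cells of a type cannot be told from less RNA per cell.

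Cd36, the membrane transporter of long-chain fatty acids, was measured by 1 probe that was above the limit on 0 Rev-/- arrays and 1 WT array. Its log2 intensities were 6.55, 6.67 and 6.71 on Rev-/- 1 to 3, against 6.72, 6.60 and 6.69 on WT 1 to 3. These values lie at background in both groups, so no fold change is given and Cd36 was left out of the test.

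Fabp3, the fatty acid carrier of heart and skeletal muscle, had log2 intensities of 12.27, 13.11 and 12.83 on Rev-/- 1 to 3, against 12.91, 13.12 and 12.72 on WT 1 to 3. Rev-/- 2 and WT 2 were nearly level at the top and Rev-/- 1 lay 0.44 below every other array. The log2 fold change was −0.17 (SE 0.21, 95% interval −0.67 to 0.32, limma adjusted p = 0.998) and 0.060 without Rev-/- 1. The SD over the Rev-/- arrays was 0.43, against 0.20 over the WT arrays.

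The carnitine shuttle is formed by Cpt1b, the muscle isoform of the enzyme that loads acyl groups onto carnitine at the outer membrane and the main control point of entry, and Cpt2, which returns them to CoA inside. Cpt1b was at 10.71, 11.20 and 11.11 on Rev-/- 1 to 3, against 11.05, 11.18 and 11.01 on WT 1 to 3, so that Rev-/- 2 was the highest of the 6 arrays and Rev-/- 3 lay among the WT arrays. Cpt2 was at 10.85, 11.30 and 11.23 on Rev-/- 1 to 3, against 11.06, 11.52 and 11.08 on WT 1 to 3. The log2 fold changes were −0.074 (SE 0.13) for Cpt1b and −0.094 (SE 0.16) for Cpt2, with 95% intervals of −0.38 to 0.23 and of −0.47 to 0.28 (limma, adjusted p = 0.998 for both). All 3 kept probes of Cpt2 were below 0, from −0.16 to −0.094, while the dimmer probe of Cpt1b was at 0.013 (SE 0.13).

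The acyl-CoA dehydrogenases catalyse the first step of each β-oxidation cycle, Acadvl on very long, Acadl on long and Acadm on medium chains. Acadvl was at 10.53, 11.04 and 10.75 on Rev-/- 1 to 3, against 10.93, 11.06 and 10.88 on WT 1 to 3. Acadl was at 8.99, 9.84 and 9.58 on Rev-/- 1 to 3, against 9.68, 9.90 and 9.53 on WT 1 to 3, the widest range of the 9 genes at 0.90. Acadm was at 12.39, 12.83 and 12.62 on Rev-/- 1 to 3, against 12.60, 12.83 and 12.61 on WT 1 to 3, the narrowest at 0.44. In each of the 3 genes Rev-/- 1 was lowest and WT 2 highest, with Rev-/- 2 just below it.

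The differences between the groups were within that spread. The log2 fold change was −0.19 (SE 0.13) for Acadvl, −0.23 (SE 0.21) for Acadl and −0.066 (SE 0.12) for Acadm, with limma adjusted p = 0.998 for all 3. Without Rev-/- 1 they were −0.066, 0.010 and 0.044. A dimmer probe of Acadvl was at −0.088 (SE 0.21) and one of Acadl at 0.023 (SE 0.20), and the remaining Acadl probe did not pass the filter, with 2 of 6 arrays above the limit. The 95% interval of Acadm, −0.35 to 0.22, lay inside the 1.5-fold limits, whereas that of Acadl, −0.72 to 0.26, reached past them on the lower side.

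Hadha and Hadhb encode the α and β subunits of the mitochondrial trifunctional protein, which carries out the remaining steps of the cycle on long chains. Hadha was at 7.29, 7.83 and 7.75 on Rev-/- 1 to 3, against 7.60, 7.80 and 7.54 on WT 1 to 3, and Rev-/- 2 and 3 were among the 3 highest arrays. Hadhb was at 10.54, 10.98 and 10.86 on Rev-/- 1 to 3, against 10.88, 11.15 and 10.85 on WT 1 to 3. The log2 fold changes were −0.024 (SE 0.15) for Hadha and −0.17 (SE 0.13) for Hadhb (limma, adjusted p = 0.998 for both), and 0.14 and −0.042 without Rev-/- 1. The Hadha probe is annotated to a cDNA clone record and not to a reference transcript, and its intensity as deposited was 163 to 229, above the background limit on all 6 arrays.

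**Figure D2:**
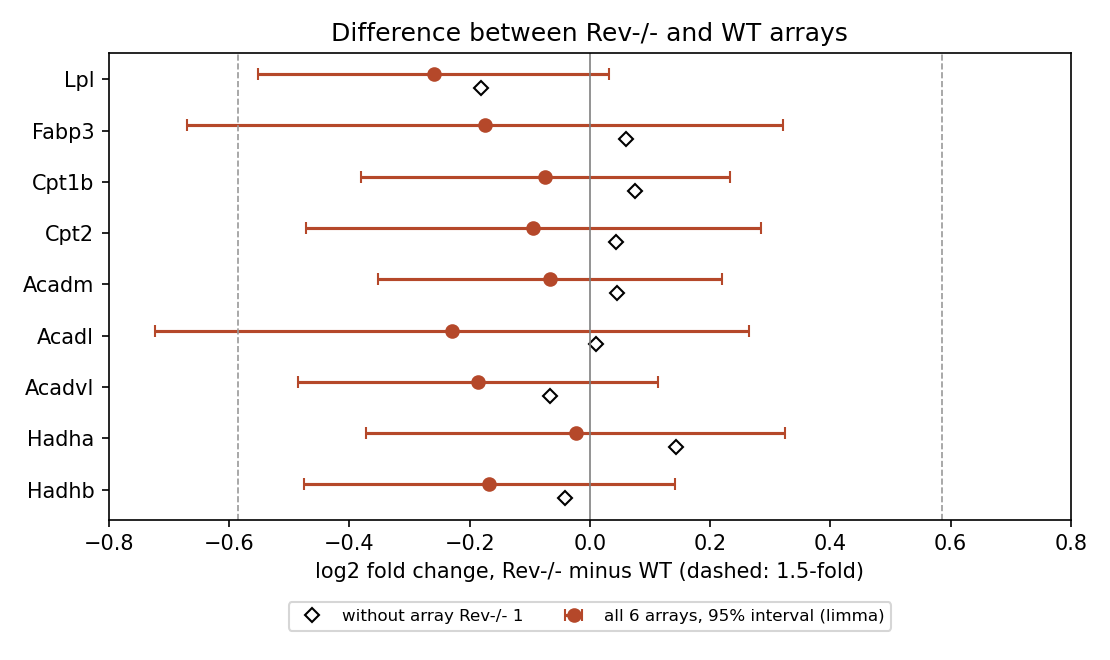
Log2 fold change between Rev-/- and WT arrays (x axis) for the 9 measured genes. Filled circles with 95% intervals from limma use all 6 arrays, open diamonds leave out array Rev-/- 1, and dashed lines mark 1.5-fold; every interval includes 0, and 6 of the 9 diamonds lie above 0.

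To see what the genes shared in sequence, the stretch before their start sites was read in RefSeq promoters of build GRCm38.p6, each from 250 bases before to 50 after the start. Of the 10 genes 8 matched, all but Lpl and Cpt1b. The nuclear receptor half-site AGGTCA, on either strand, was in 3 of the 8, Acadvl, Acadm and Cd36, and in 16.3% of 32851 promoters. With T before it, as in the core of the RORE (TAGGTCA), it was in Acadvl only and in 2.61% of promoters, and with A before it (AAGGTCA), as in the ERR element, it was in Acadm only and in 4.72%. The longer RORE AANTAGGTCA, the PPAR direct repeat AGGTCANAGGTCA and the ERR element TNAAGGTCA, each of which contains the half-site, were in 0 of the 8 and in 0.219%, 0.0396% and 1.28% of promoters. The GC box GGGCGG was in 5 of the 8, Acadl, Cpt2, Cd36, Hadha and Hadhb, and in 35.7% of promoters. The Hadha match, 188 bases before its start, is the same stretch of DNA as the Hadhb match 90 bases before its start. All of these are matches of letters and not sites of binding.

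The start sites of Hadha, on the minus strand, and Hadhb, on the plus strand, lie 272 bases apart on chromosome 5 and face away from each other, so that the subunits share 1 promoter region. It is shown with the 2 receptor half-sites so that the region common to the subunits and the only matches before mitochondrial members can be seen. Each line gives the 250 bases before the start, 5′ to 3′ on the strand of the gene, with GC boxes in capitals for Hadhb (chr5:30155003-30155252, plus strand), TAGGTCA for Acadvl (chr11:70015429-70015678, minus strand) and TGACCTT, which is AAGGTCA read on the other strand, for Acadm (chr3:153944644-153944893, minus strand).
Hadhb: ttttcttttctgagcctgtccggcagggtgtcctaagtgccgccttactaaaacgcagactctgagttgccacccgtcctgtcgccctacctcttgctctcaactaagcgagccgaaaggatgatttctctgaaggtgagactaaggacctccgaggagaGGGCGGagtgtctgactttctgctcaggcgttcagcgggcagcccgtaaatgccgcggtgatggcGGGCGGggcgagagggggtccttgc
Acadvl: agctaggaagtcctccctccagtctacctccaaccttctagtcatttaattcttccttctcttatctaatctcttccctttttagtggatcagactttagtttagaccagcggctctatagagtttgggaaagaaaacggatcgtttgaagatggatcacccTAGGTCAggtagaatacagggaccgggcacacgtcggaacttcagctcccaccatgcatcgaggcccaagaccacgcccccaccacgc
Acadm: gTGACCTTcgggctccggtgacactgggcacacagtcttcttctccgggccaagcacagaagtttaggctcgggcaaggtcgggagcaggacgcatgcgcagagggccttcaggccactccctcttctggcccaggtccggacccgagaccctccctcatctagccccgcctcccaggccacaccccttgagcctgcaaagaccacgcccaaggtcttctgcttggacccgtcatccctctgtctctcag
The Acadvl match begins 88 bases and the Acadm match 249 bases before the start. Acadvl and Acadm, with a half-site, had log2 fold changes of −0.19 and −0.066. The 4 other measured genes with a matched promoter had none, and were at −0.23 for Acadl, −0.17 for Hadhb, −0.094 for Cpt2 and −0.024 for Hadha.

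Across the 6 arrays 8 of the 9 genes followed a similar course. The mean over all 9 genes, Lpl included, of log2 values centred on each gene was −0.37, 0.15 and 0.0065 on Rev-/- 1 to 3, against 0.046, 0.22 and −0.058 on WT 1 to 3. The spread among the Rev-/- arrays, from the lowest to the second highest of the 6, was therefore wider than the distance between the groups. WT 2 was highest for 6 of the 9, Rev-/- 2 for Cpt1b and Hadha, and WT 1 for Lpl. In 8 of the 9, all but Lpl, Rev-/- 2 was above both WT 1 and WT 3. Lpl thus departed from the others, at −0.093 on Rev-/- 2 and 0.36 on WT 1.

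**Figure D3:**
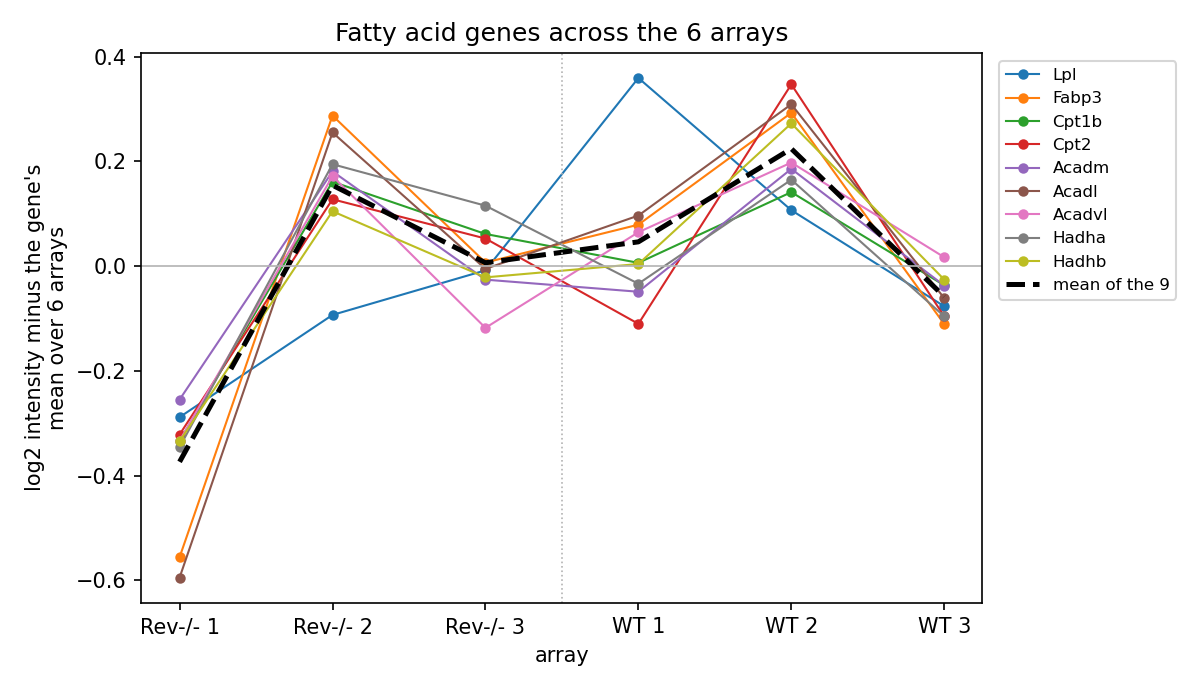
Log2 intensity minus the mean of the gene over the 6 arrays (y axis) on each array (x axis, Rev-/- left of the dotted line and WT right of it). Solid lines are the 9 measured genes and the dashed line their mean, which runs from −0.37 on Rev-/- 1 to 0.22 on WT 2, and Lpl is the line that peaks on WT 1.

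Relative to the mean of the other 5 arrays, Rev-/- 1 was lower by 0.31 for Acadm to 0.71 for Acadl, with a median difference of −0.40, against −0.011 over all genes. Markers of some other cell types were also brightest on that array. All 8 neutrophil markers were measured, and their summed intensity was 17670 on Rev-/- 1, against 1022 and 2555 on the other Rev-/- arrays and 938 to 3323 on the WT arrays. Of 8 bone markers 5 were measured, with a sum of 10565 on Rev-/- 1 against 562 to 679 on the other 5 arrays, and Dmp1 was not well above background. Bglap encodes osteocalcin of bone matrix and was at 11.09 on Rev-/- 1, against 6.61 and 6.77 on the other Rev-/- arrays and 6.73, 7.11 and 6.87 on the WT arrays. Sums were also highest on Rev-/- 1 for the 3 measured of 7 red cell markers, at 33835 against 20216 to 25968 on the other 5 arrays. The sum of 8 fibroblast markers was 33541 there, against 22538 to 27318, with the collagens Col1a1 and Col1a2, which bone also makes, at 13.89 and 12.15, while Col3a1 was lowest on Rev-/- 1 and the median difference of the 8 from the other arrays was 0.041. Not all lists ran this way: on Rev-/- 1 the sum was 2437 for macrophage markers, against 1791 to 3865 on the other 5 arrays, 7450 for endothelial markers, against 6979 to 8016, and 5363, the lowest of the 6, for adipocyte markers. That adipocyte sum is led by Car3, the brightest of the 6 measured adipocyte markers. Only Car3 of the 6 was lowest on Rev-/- 1, at 11.96 against 12.30 to 12.97 on the other 5 arrays. The part of any of these cell types in the low fatty acid values was not tested. The summed intensity of fibre markers was 189339 on Rev-/- 1, within the range of 186910 to 199347 over the other 5 arrays. Such a sum is led by its brightest probes and says little of the dimmer ones. Of the 15 measured fibre markers 6 (40%) were lowest on Rev-/- 1, against 24.8% of all genes, with a median difference of −0.099. The sum of satellite cell and myoblast markers was lowest there, at 9280 against 9974 to 11900, and 8 of the 9 measured were lowest on that array.

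Other genes of fatty acid metabolism were read from 7 lists of 97 genes outside the members, of which 83 were measured. With limma 0 of the 83 were called. Before adjustment, p was 0.05 or less for 3 lower genes, Acsl6, Mgll and Abhd5, and 1 higher gene, Prkab1, beside the 1.95% lower and 1.24% higher of all genes. All Rev-/- arrays lay below all WT arrays in 4 of the 83 and above them in 1, beside 4.63% and 3.55% of all genes. The median log2 fold change of the 83 was −0.031 and, without Rev-/- 1, 0.028, and 40 were lowest on Rev-/- 1.

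Of the remaining genes of mitochondrial β-oxidation 17 were measured and 14 were below 0, with a median of −0.087 and, without Rev-/- 1, of 0.077, and 16 were lowest on Rev-/- 1. The brightest were the electron transfer flavoprotein subunits that take electrons from the acyl-CoA dehydrogenases. Etfa was at 12.73, 12.85 and 12.86 on Rev-/- 1 to 3, against 12.94, 13.10 and 12.85 on WT 1 to 3, and Etfb at 12.45, 12.87 and 12.90, against 12.76, 12.83 and 12.52. Their log2 fold changes were −0.15 (SE 0.082) and 0.038 (SE 0.14) (limma, adjusted p = 0.998 for both), and that of Etfb was 0.18 without Rev-/- 1. Citrate cycle enzymes, which burn the acetyl-CoA that β-oxidation yields, had a median of −0.11 over 19 and, without Rev-/- 1, of 0.0043, and 14 were lowest on Rev-/- 1.

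Of 9 peroxisomal β-oxidation genes 2 were lowest on Rev-/- 1, and their median was −0.0035, with Acaa1a, the peroxisomal thiolase, at −0.0035 (SE 0.074) and Scp2, a sterol carrier and thiolase, at −0.025 (SE 0.13), and without Rev-/- 1 they were at −0.014 and 0.030. Of 6 genes of the carnitine shuttle and of malonyl-CoA, which inhibits CPT1, 3 were lowest there. Slc25a20, the carnitine-acylcarnitine exchanger between Cpt1b and Cpt2, was at 10.59, 11.24 and 11.23 on Rev-/- 1 to 3, against 11.23, 11.18 and 10.79 on WT 1 to 3, a log2 fold change of −0.051 (SE 0.20) that was 0.16 without Rev-/- 1. Mlycd, which breaks down malonyl-CoA, was at 9.98, 10.08 and 10.18, against 10.20, 10.28 and 10.21, with all Rev-/- arrays below all WT arrays, at a log2 fold change of −0.15 (SE 0.070, limma adjusted p = 0.998). Whether the lists differ from each other in this respect was not tested.

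**Figure D4:**
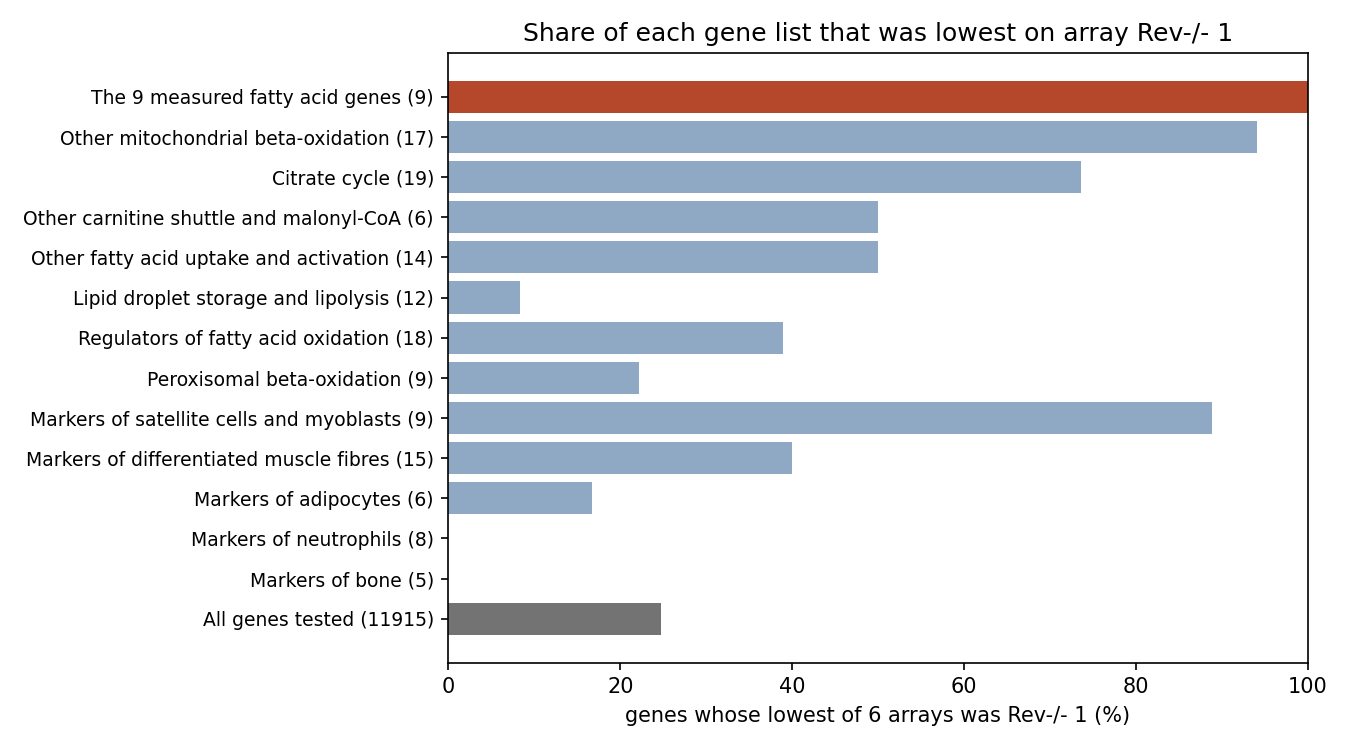
Share of measured genes in each list whose lowest value of 6 arrays was on Rev-/- 1 (x axis, percent), with the number of measured genes in parentheses. All 9 fatty acid genes and 16 of 17 other genes of mitochondrial β-oxidation were lowest there, against 24.8% of all genes.

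Fatty acid uptake and activation genes had a median of −0.057 over 14. Got2, the mitochondrial aspartate aminotransferase also described as a plasma membrane fatty acid binding protein, was at −0.21 (SE 0.15), and Dbi, the acyl-CoA binding protein, at −0.33 (SE 0.24). Without Rev-/- 1 they were at −0.094 and −0.17. Acsl6, an acyl-CoA synthetase, was at 7.31, 7.36 and 7.39 on Rev-/- 1 to 3, against 7.75, 7.63 and 7.49 on WT 1 to 3, so that its groups did not overlap (log2 fold change −0.27, SE 0.077, limma adjusted p = 0.998). Gpihbp1, the endothelial anchor of LPL at the capillary wall, was at 0.0079 (SE 0.12) and, without Rev-/- 1, at 0.10.

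Lipid droplet genes, which store and release triglyceride, had the lowest median of the 7 lists, −0.14 over 12, and −0.12 without Rev-/- 1, on which 1 of the 12 was lowest. Mgll, the lipase of monoglycerides, was at 9.26, 9.10 and 9.33 on Rev-/- 1 to 3, against 9.47, 9.50 and 9.42 on WT 1 to 3, a log2 fold change of −0.23 (SE 0.074, limma adjusted p = 0.998). Abhd5, the coactivator of the triglyceride lipase, was at 8.20, 8.08 and 8.17, against 8.38, 8.25 and 8.29, a difference of −0.16 (SE 0.066). The groups did not overlap for these 2 genes, which are 2 of the 4 such lower genes among the 83, beside 4.63% of all genes. Of the brightest members of the list, Pnpla2, that lipase, was at 0.036 (SE 0.11) and Plin4, a droplet coat protein, at −0.22 (SE 0.24), and without Rev-/- 1 they were at 0.0020 and −0.14. Of the 12 genes, 8 were highest on WT 1, the array with the highest adipocyte sum, and the part of adipocytes here was not tested.

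The regulators of fatty acid oxidation had a median of 0.0092 over 18 measured genes. Rxrb, a partner of the PPARs, was at −0.040 (SE 0.098) and, without Rev-/- 1, at −0.022, and Hdac3, the deacetylase of the corepressor complex that Rev-erbα recruits, at 0.032 (SE 0.058). Ppara was not well above background. Prkab1, a subunit of the AMP-activated kinase, was at 8.92, 8.57 and 8.45 on Rev-/- 1 to 3, against 8.17, 8.38 and 8.40 on WT 1 to 3 (log2 fold change 0.33, SE 0.13, limma adjusted p = 0.998), with all Rev-/- arrays above all WT arrays, and its log2 fold change was 0.19 without Rev-/- 1. Among 7 measured PPAR targets outside β-oxidation the median was 0.034. Txnip, a thioredoxin inhibitor, was at 0.066 (SE 0.16), and Pdk4, the kinase that turns muscle from glucose to fat oxidation, was at 9.82, 10.21 and 10.56 on Rev-/- 1 to 3, against 10.04, 10.10 and 9.82 on WT 1 to 3 (log2 fold change 0.21, SE 0.18, and 0.40 without Rev-/- 1).

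The genes most like the members in course were taken by the root mean square difference of their centred values from the mean of the 9 over the 6 arrays, which had a median of 0.207 over 11906 other genes. The 5 closest were Snurf, a reading frame of the imprinted Snrpn transcript, at 0.0223, Mtres1, a factor of mitochondrial transcription, at 0.0292, Parm1 at 0.0352, Mrps7, a protein of the mitochondrial ribosome, at 0.0431, and Atp2a2, the calcium pump SERCA2, at 0.0447. Their low values on Rev-/- 1, between −0.40 and −0.32, follow from that choice.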

How the data were processed

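RNA of Rev-/- and WT primary myoblasts was hybridised to 6 mouse WG-6 arrays of Illumina. The authors deposited linear bead intensities for 45281 probes, which their methods describe as background-subtracted and quantile-normalized with lumi. GenomeStudio, lumi and limma are listed in the submitters' processing notes without versions. The deposited columns did not share 1 distribution and had a floor of 76.2 to 83.7, so quantile normalization was applied before log2, using limma 3.58.1 (R 4.3.3). A second table of 12 columns, signals and detection p-values named by chip position only, was not used, since nothing pairs positions with samples. The number of arrays limits the precision.

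Of the probes 34885 carried 1 gene symbol, 18 several and 10378 none, and 34807 were matched to a current symbol by gene number. The background limit of an array was the 95th percentile of its dim-probe distribution, mirrored about its peak. Of 22106 probes above it on at least 3 arrays, 18639 had 1 symbol and entered lmFit and eBayes with no block, with adjustment over all of them. The members and lists were chosen with earlier results of these data known. Named were all members with every probe, the 2 brightest genes of each other fatty acid list, any called gene, and the 5 genes closest in course. Genes of small unadjusted p, Gpihbp1, Ppara, Nr1d1, Arntl and the markers given were named after their values were seen. The script was tested on simulated data. Alternatives were other normalizations, normexp background correction, filters, array weights, a trended and robust prior, blocking on replicate number, averaging probes, no fold minimum and leaving out each array.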

Additional observations from a re-analysis of the deposited data

How the results depend on the processing

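The count of called genes was 0 under all 17 alternatives, for all genes, for the members and for the other fatty acid genes. The count of members with all Rev-/- arrays below all WT arrays, a measure chosen after seeing the data, was 0 of 9. It ran from 0 to 1 on leaving out 1 array, and was 2 with array medians aligned and 4 with no normalization. The share of all genes was not counted under these alternatives, so those counts have no share to be read against. With array medians aligned and with no normalization the median of all genes was −0.10 and −0.15, and that of the members −0.39 and −0.44, against −0.0048 and −0.17 after quantile normalization. Leaving out 1 array moved the median of the members between −0.26 and 0.043, the highest value being that without Rev-/- 1. Without Rev-/- 1 the sign turned for Fabp3 (0.060), Acadm (0.044), Cpt2 (0.043), Cpt1b (0.074), Acadl (0.010) and Hadha (0.14), and without WT 2 for Acadm (0.0098), Cpt2 (0.056) and Hadha (0.053). With leaving out 1 array the log2 fold change ran from −0.36 to 0.060 for Fabp3, −0.17 to 0.044 for Acadm, −0.18 to 0.056 for Cpt2, −0.17 to 0.074 for Cpt1b, −0.41 to 0.010 for Acadl and −0.13 to 0.14 for Hadha. With array weights Hadha was at 0.023. Lpl, Hadhb and Acadvl kept their sign under all 17. The smallest adjusted p of a member over the alternatives was 0.16, for Acadvl with no normalization. Before adjustment, limma p with no normalization was 0.05 or less for every measured member but Fabp3 and Hadha, and smallest for Acadvl (0.0049). With array medians aligned it was so for Lpl (0.045), Hadhb (0.019) and Acadvl (0.013). On leaving out 1 array it was so for Acadvl without Rev-/- 2 (0.016) and Lpl without WT 3 (0.022). The share of all genes at that p was not counted under these alternatives. The cause of the shifts between alternatives was not tested. Over all tested probes the deviations of same-numbered arrays from their group means had correlations of −0.14, 0.14 and 0.037. The numbers were not taken as pairs, though such correlations cannot exclude a pairing. With the replicate number as a block 0 genes were called and the median of the members was −0.17. Limma p then fell for every measured member but Lpl, for Acadvl from 0.19 to 0.095, and rose for Lpl from 0.074 to 0.13. Cd36 lay at background and could not be compared.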
